A study of Arabidopsis thaliana with 42 samples.

Results

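Rsch-4 is a natural accession of Arabidopsis thaliana from Russia and one of the parents of the MAGIC lines, which were bred by crossing many accessions so that traits can be mapped. Its 2 seedling libraries, both labelled biological replicates, were set against the 36 biological libraries of Bur-0, Can-0, Col-0, Ct-1, Edi-0, Hi-0, Kn-0, Ler-0, Mt-0, No-0, Oy-0, Po-0, Sf-2, Tsu-0, Wil-2, Ws-0, Wu-0 and Zu-0, which are 2 libraries for each of 18 accessions. The series holds 42 libraries, and the 4 technical libraries of Col-0 were left out. All plants were untreated inbred accessions of one age, 11 days, raised on soil at 20 °C with 16 hours of light after 5 days of cold at 4 °C. No accession carries an introduced allele, and the labels do not say how many plants went into a library or at what hour they were cut. With 2 libraries the spread of Rsch-4 rests on a single difference, and p-values measure the spread between such libraries of one accession.

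Accessions differ in sequence across the genome, and levels of many transcripts differ with it. Some loci are present, silenced or truncated in only some accessions. Best known in seedlings are genes of glucosinolate chemistry, which set the defence compounds of the leaf, of immune receptors, and of flowering time. Reads that differ from the reference can also be lost in alignment, so a low RPKM (a read count scaled to exon length and library depth) may come from less RNA or from a diverged or missing sequence, and these cannot be told apart here. In whole seedlings, fewer cells of a type and less RNA per cell cannot be told apart either.

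The 2 Rsch-4 libraries held an estimated 2330000 and 3240000 mapped reads, within the 1240000 to 4910000 of all 38. At those depths 3 reads on an exon model of 1500 bases are worth 0.858 and 0.616 RPKM. Their correlation with each other across genes, 0.972, ranked 17 among the 19 accessions, whose range was 0.964 in No-0 to 0.984 in Ct-1. The sequencing lanes of Rsch-4 also carried Wil-2, Tsu-0 and Sf-2, called its lane mates here, and no other accession. Pollen markers reached the filter in 2 of 7 genes and seed markers in 4 of 11, and none of those 6 was called.

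Of 20101 nuclear genes tested, 1480 (7.36%) were higher in Rsch-4 than in the mean of the other 18 accessions and 1057 (5.26%) were lower, by limma with an adjusted p under 0.05. After quantile normalization the counts were 1222 higher and 1211 lower, so the excess of higher calls depended on the scaling. Most differences were small: the median absolute difference was 0.20 on the log2(RPKM + 1) scale, and 466 of the 2537 called genes differed by at least 1. The test uses the spread between libraries of one accession, so a call says that Rsch-4 differs from the mean of the others and not that it lies outside their range. A stricter group, here called set apart, needed a call, a difference of at least 1 and both Rsch-4 libraries beyond all 36 others. It held 50 genes higher (0.249%) and 20 lower (0.0995%). Fewer genes were called in each direction without either Rsch-4 library, with a single one left each time. The drop was larger without replicate 1, the shallower library, than without replicate 2.

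By the same rules Rsch-4 was among the accessions with few genes of their own. Its 70 genes set apart ranked 15 among 19, between the 35 of Po-0 and the 303 of Bur-0, although its 2537 calls ranked 6. Against single accessions, Rsch-4 differed least from Tsu-0, with 1168 genes called, then Sf-2 with 1460, No-0 with 1690 and Wil-2 with 1778. It differed most from Ler-0 with 3231 genes, Mt-0 with 3170 and Bur-0 with 3002. Of the nearest 4, all but No-0 are the lane mates, and likeness by lane and by accession cannot be told apart.

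**Figure D1:**
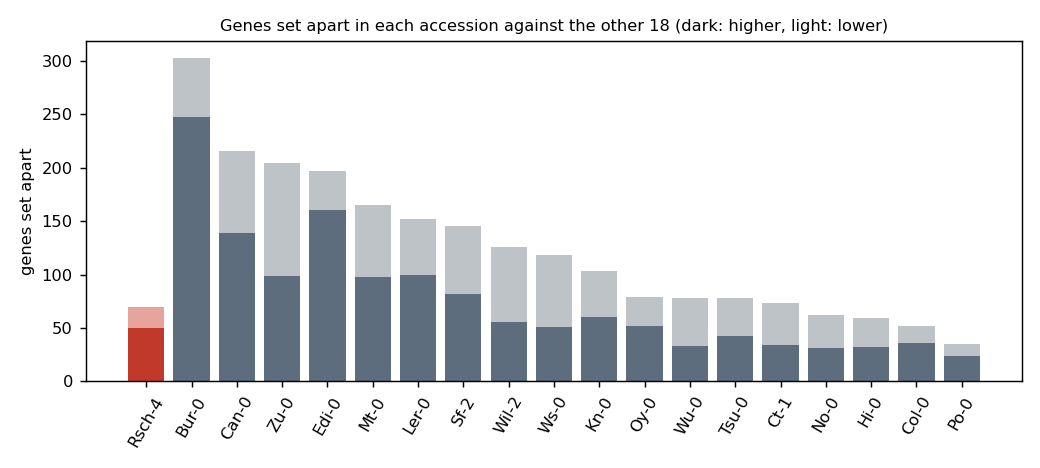
Number of genes set apart in each accession against the other 18, with the dark part of a bar for genes higher and the light part for genes lower. Rsch-4, at the left, has 70, below most of the others, which run from 303 in Bur-0 to 35 in Po-0.

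Fitted with the lane mates only (8 libraries), Rsch-4 had 242 genes higher and 243 lower. The 70 genes set apart keep their sign there by rule, since both Rsch-4 libraries lie beyond every lane-mate library. Of these 70, 39 were called, 30 higher and 9 lower, in genes picked with the same values. With the 19 accession means as units, so that the spread between accessions is the error, 8 genes were higher and 4 lower. They were AT1G28830, AT1G62230, LCV3, RABC2b, AT3G18150, AT4G11170, U60.1F and GIL1 on the higher side and CYP708A3, AT4G09490, RAD52-2 and ATCRT1 on the lower side. All exon words of AT1G28830 occur in other genes too, and AT1G62230 is listed at 0 in Rsch-4 replicate 1 and at 7.91 RPKM in replicate 2.

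Among genes set apart above the other accessions, the largest difference was that of QQS, a gene found only in Arabidopsis thaliana whose product modulates starch content. QQS lies at chr3:12349047-12349933 on the plus strand of TAIR10.1. It had 62.7 and 69.8 RPKM in Rsch-4, against 0 to 57.6 in the other 36 libraries, of which 22 are listed at 0. Rsch-4 exceeded the mean of the others by 5.25 with a standard error of 0.31 (adjusted p = 1.13e-11), and standard errors follow the ± sign below. Edi-0, at a mean of 52.5 RPKM, came near, and the next accession, Wu-0, was at 7.39.

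Transcription factors, a leucine-rich repeat gene and a small GTPase followed. AT4G19630, annotated as a winged-helix transcription factor, had 43.1 and 28.7 RPKM in Rsch-4, against 0 to 13.2 in the others (difference 4.14 ± 0.35, adjusted p = 8.16e-09). AT2G41440, annotated as an agamous-like MADS-box protein, had 24.6 and 23.7 RPKM in Rsch-4, against 0 to 6.86 in the others (3.61 ± 0.15, adjusted p = 8.38e-15). AT3G43740, which codes for a leucine-rich repeat protein, had 22.0 and 20.1 RPKM in Rsch-4, against a lowest of 0, a median of 0 and a highest of 17.56 in the others, of which 22 are listed at 0. Both Rsch-4 libraries lay above all others in each of these genes, by a small margin in AT3G43740 and a wide one in AT2G41440. RABC2b, a small GTPase of vesicle traffic, had 11.7 and 8.68 RPKM in Rsch-4, against 0 to 3.19 in the others (2.55 ± 0.26, adjusted p = 1.80e-07). Its exons share 26.96% of their 32-base words with other genes, and its annotated span overlaps AT3G09900, so its level is uncertain.

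Several transcripts were near absent outside Rsch-4. AT3G18150, annotated as an RNI-like protein at chr3:6217929-6219500, had 4.07 and 5.84 RPKM in Rsch-4 and is listed at 0 in all 36 other libraries. LCV3, a relative of the membrane protein CONTINUOUS VASCULAR RING, had 6.45 and 9.98 RPKM in Rsch-4, against 0 to 0.372 in the others, of which 33 are listed at 0. LCV3 overlaps AT2G18465 on the opposite strand, and strand use was not given. AT3G28330, annotated as F-box-like, had 4.08 and 5.28 RPKM in Rsch-4, against 0 to 2.61 in the others. These values stand for an estimated 13.0 and 25.9 reads of AT3G18150, 14.8 and 31.8 of LCV3 and 11.4 and 20.4 of AT3G28330. The snoRNA U60.1F passed every rule with 5.73 and 4.12 RPKM in Rsch-4, but on 74 exon bases this is about 1 read in each library, and it overlaps AT5G52470. Of the 50 genes, 5 had fewer than 10 estimated reads in a Rsch-4 library.

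AT1G30250, annotated as uncharacterized, had 27.1 and 32.7 RPKM in Rsch-4, against 0 to 24.6 in the others. Its difference of 2.38 ± 0.60 (adjusted p = 0.00949) was not past the threshold without Rsch-4 replicate 1 (adjusted p = 0.124) or replicate 2 (0.0956).

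Below all other accessions the largest difference was that of AT4G09490, annotated as a ribonuclease H-like protein at chr4:6015562-6016575. It is listed at 0 in both Rsch-4 libraries, against 3.70 to 17.1 RPKM in the others (difference -3.17 ± 0.23, adjusted p = 5.33e-10). BGLU47, a beta-glucosidase, had 1.18 and 1.06 RPKM in Rsch-4, against 1.58 to 29.1 in the others (-2.62 ± 0.17, adjusted p = 5.47e-11). The cytochrome P450 gene CYP708A3 had 2.60 and 3.23 RPKM in Rsch-4, against 13.4 to 35.03 in the others (-2.42 ± 0.12, adjusted p = 1.57e-13). Here the 36 libraries lay close together, and the gap to Rsch-4 was wide. ATCRT1, a RING-type protein, showed the same form with 3.41 and 2.79 RPKM in Rsch-4, against 6.48 to 16.6 in the others (-1.58 ± 0.17, adjusted p = 6.48e-07).

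SDR2, annotated as an NAD(P)-binding protein, had 0.877 and 1.58 RPKM in Rsch-4, against 1.68 to 11.8 in the others. CYP77A5P, annotated as a P450 pseudogene, had 2.37 and 3.22 RPKM in Rsch-4, against 4.92 to 15.4. AT1G08900, a transporter of the major facilitator superfamily, had 2.15 and 3.09 RPKM in Rsch-4, against 4.65 to 15.1. BGLU47 and SDR2 each overlap an annotated neighbour, whose reads cannot be told apart without strand. SDR2, CYP77A5P and AT1G08900 did not overlap the other libraries, with adjusted p of 9.57e-06 for SDR2, 7.31e-07 for CYP77A5P and 4.83e-07 for AT1G08900. AT1G29720, a leucine-rich repeat kinase, had 0.262 and 0.472 RPKM in Rsch-4, against 0.533 to 32.9 in the others, and its Rsch-4 values stand for an estimated 2.1 and 5.2 reads.

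One pair of neighbours was set apart together. UMAMIT36, of the UMAMIT family of amino acid exporters, and AT1G70250, a receptor-type kinase, lie next to each other on chromosome 1 at 26456774 to 26459570 and 26452847 to 26456305. UMAMIT36 had 0.877 and 0.840 RPKM in Rsch-4, against 1.60 to 14.7 in the others (-1.65 ± 0.25, adjusted p = 8.00e-05). AT1G70250 had 1.60 and 1.28 RPKM in Rsch-4, against 1.60 to 9.38 in the others (-1.23 ± 0.18, adjusted p = 5.02e-05). For AT1G70250 the higher Rsch-4 value and the lowest of the others are equal after rounding.

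**Figure D2:**
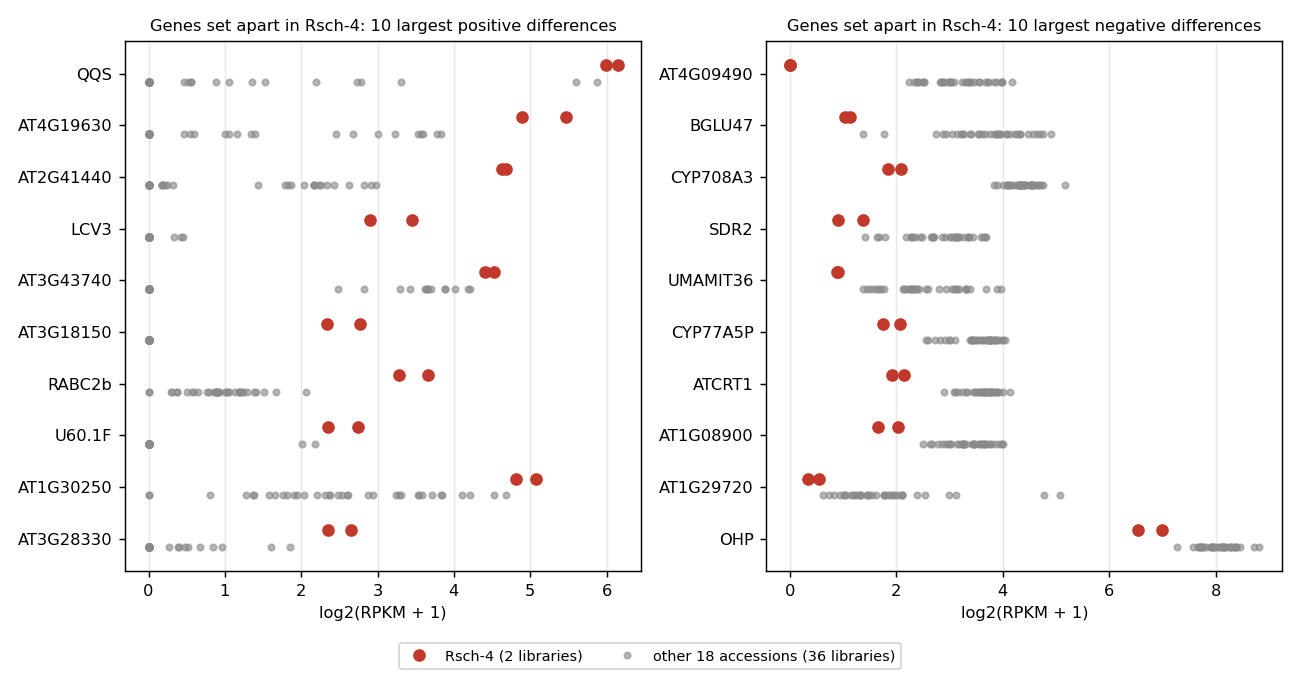
Level of each gene as log2(RPKM + 1) in every library for the 10 largest positive (left) and 10 largest negative (right) differences among genes set apart, with the 2 Rsch-4 libraries in red above the 36 others in grey. QQS and AT3G43740 are high in some other libraries too, whereas AT3G18150 is listed at 0 in all 36 and AT4G09490 at 0 only in Rsch-4.

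Cytochrome P450 genes, which code for oxygenases of plant metabolism, counted 6 among the 70 set apart. Of 143 tested, 4 were set apart higher and 2 lower, which is 4.196% of the class, beside 0.249% and 0.0995% of all genes. CYP706A6 had 200 and 165 RPKM in Rsch-4, against 11.5 to 126 in the others. CYP705A22 had 19.8 and 20.4 RPKM in Rsch-4, against 0.738 to 18.6. The class was chosen after the values were seen and has no test.

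In the flavonoid pathway the flavonol genes FLS1 and MYB111 were higher in Rsch-4, and LDOX, DFR, UF3GT, TT19 and AT4G14090, listed with the anthocyanin genes, were lower. Both branches start from chalcone and dihydroflavonols: flavonol synthase draws them to flavonols, and dihydroflavonol reductase and leucoanthocyanidin dioxygenase draw them to anthocyanins. Of 24 genes tested, 3 (12.5%) were higher and 7 (29.2%) lower, against 7.36% and 5.26% of all genes, with a median difference of -0.24, beside 0.03 over all genes tested. FLS1, flavonol synthase, had 60.25 and 65.7 RPKM in Rsch-4, against a lowest of 14.1, a median of 25.9 and a highest of 47.8 in the others. The difference was 1.25 ± 0.14 (adjusted p = 6.68e-07). MYB111, a transcription factor that activates flavonol genes, had 11.5 and 7.53 RPKM in Rsch-4, against 0.817, 3.57 and 6.48 (1.17 ± 0.20, adjusted p = 2.62e-04). Both genes lay above every other library. The third gene higher was 4CL3, a 4-coumarate ligase that feeds the pathway, at 15.8 and 17.3 RPKM in Rsch-4 and 5.81 to 20.4 in the others (0.45).

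On the anthocyanin side, LDOX, leucoanthocyanidin dioxygenase, had 4.09 and 8.33 RPKM in Rsch-4, against a lowest of 7.37, a median of 17.8 and a highest of 34.95 in the others (-1.42 ± 0.21, adjusted p = 4.50e-05). DFR, dihydroflavonol reductase, had 10.1 and 4.299 RPKM in Rsch-4, against 9.68 to 45.2 in the others (-1.40). UF3GT, a glycosyltransferase of anthocyanins, had 2.303 and 1.655 RPKM in Rsch-4, against 2.256 to 20.2 (-1.32). In each of these 3 genes Rsch-4 had the lowest mean of the 19 accessions and 1 of its libraries overlapped the others. AT4G14090, annotated as a UDP-glycosyltransferase, lay below every other library with 5.76 and 4.36 RPKM in Rsch-4, against 6.81 to 24.6 (-1.10 ± 0.19, adjusted p = 2.59e-04). Its annotated span overlaps 2 other genes. TT19, a glutathione transferase needed to bring anthocyanins to the vacuole, had 9.36 and 9.53 RPKM in Rsch-4, against 8.49 to 34.7 (-0.79). PAP1 (AT1G56650), a MYB activator of anthocyanin genes, was lower too, at 2.34 and 5.05 RPKM in Rsch-4 and 0.918 to 17.1 in the others (-0.77, adjusted p = 0.03415), as was MYBL2, a repressor of these genes, at 54.7 and 48.99 RPKM in Rsch-4 and 19.1 to 129 in the others (-0.39).

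Chalcone synthase and chalcone isomerase were not called. CHS, chalcone synthase, had 94.3 and 138 RPKM in Rsch-4, against 64.3 to 272 in the others, and CHI (AT3G55120), chalcone isomerase, had 30.4 and 40.3 against 23.3 to 56.0. MYB12, a close relative of MYB111, had 0.295 and 0.636 RPKM in Rsch-4, against 0 to 1.17 in the others. MYB12, MYB11 and the glycosyltransferases UGT78D1 and UGT78D2 were not called. Against the lane mates alone 1 gene of the list was higher and 1 lower: FLS1 differed by 1.87 ± 0.18 (adjusted p = 0.0111) and MYBL2 by -0.51 ± 0.07 (adjusted p = 0.0317). No anthocyanin enzyme of the list was called there by limma; MYB111 differed by 1.502 ± 0.26 (adjusted p = 0.0549) and LDOX by -0.92 ± 0.31 (adjusted p = 0.230). Fewer genes of the list were called in each direction without either Rsch-4 library, with a single one left each time.

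**Figure D3:**
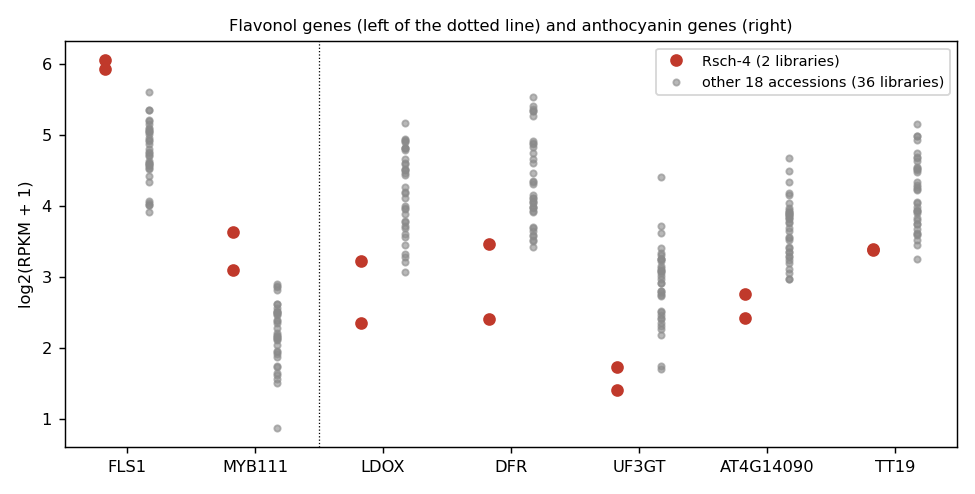
Level as log2(RPKM + 1) of 2 flavonol genes (left of the dotted line) and 5 anthocyanin genes (right) in the 2 Rsch-4 libraries (red, left of each pair) and the 36 others (grey). FLS1 and MYB111 lie above all others in Rsch-4, and AT4G14090 lies below all others.

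Genes of glucosinolate chemistry showed large differences in both directions. Glucosinolates are sulfur-rich defence compounds that myrosinases split when tissue is damaged, and accessions are known to differ in side chain and in breakdown product. Of 42 biosynthesis genes tested, 6 (14.3%) were higher and 11 (26.2%) lower in Rsch-4, against 7.36% and 5.26% of all genes, and none was set apart. AOP3, which makes hydroxyalkyl side chains, had 132 and 142 RPKM in Rsch-4, against a median of 0.177 and a highest of 206 in the others (4.40 ± 0.18, adjusted p = 8.38e-15). Its neighbour AOP2, which makes alkenyl side chains, had 3.72 and 2.19 RPKM in Rsch-4, against a median of 282 and a highest of 668 (-4.26 ± 0.21, adjusted p = 2.03e-13). The groups overlap for both genes: 8 accessions, Rsch-4 among them, have an AOP3 mean of at least 30 RPKM, and 7, again with Rsch-4, have an AOP2 mean under 10 RPKM.

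AT2G25450, annotated as a 2-oxoglutarate-dependent oxygenase, had 0.556 and 0 RPKM in Rsch-4, against a median of 123 and a highest of 1256 in the others (-4.96 ± 0.17, adjusted p = 2.27e-16). In 6 accessions, Rsch-4 included, its mean is under 1 RPKM. The list holds it as a gene of side-chain modification. Levels of the indole methyltransferases IGMT1 and IGMT2, which modify indole glucosinolates, differed in opposite directions. IGMT1 had 6.503 and 10.5 RPKM in Rsch-4, against 0.181 to 14.2 in the others (1.42, adjusted p = 2.64e-05). IGMT2 had 0.316 and 0.227 RPKM in Rsch-4, against 0.263 to 30.8 (-2.73 ± 0.18, adjusted p = 7.93e-11). The exons of these 2 genes share words with near-identical copies, 21.9% for IGMT1 and 49.05% for IGMT2, so reads may be split between them and both values are uncertain.

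Among the other biosynthesis genes the differences were smaller. MYB29, an activator of the aliphatic branch, had 10.8 and 11.4 RPKM in Rsch-4, against 0 to 58.3 in the others (-0.68). CYP79F1, a first-step enzyme of that branch, had 68.8 and 64.0 RPKM in Rsch-4, against 33.3 to 244 (-0.67). BASS5, the plastid transporter of its precursors, had 23.9 and 23.0 RPKM in Rsch-4, against 19.02 to 74.0 (-0.65). These genes of the aliphatic branch were lower. In the indole branch MYB34, its activator, was higher by 0.41, CYP79B2 by 0.46 and CYP83B1 by 0.38. Neither branch went one way. Of the indole branch, CYP79B3, MYB51, CYP81F1, CYP81F2 and CYP81F4 were not among the genes higher, and IGMT2 was lower. On the aliphatic side AOP3 was higher, as was MAM3, which lengthens side chains, by 0.53.

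In glucosinolate breakdown, 1 of 13 genes (7.69%) was higher and 2 (15.4%) were lower, against 7.36% and 5.26% of all genes. ESP (AT1G54040), which directs breakdown to epithionitriles and nitriles, had 32.3 and 31.3 RPKM in Rsch-4, against a lowest of 21.1, a median of 2441 and a highest of 6653 in the others (-4.90 ± 0.11, adjusted p = 2.70e-20). The myrosinase gene TGG2 had 347 and 274 RPKM in Rsch-4, against 1.48 to 793 in the others (2.51 ± 0.16, adjusted p = 6.06e-11). TGG1, the other leaf myrosinase, had the lowest mean of the 19 accessions, at 1004 and 795 RPKM in Rsch-4 and 868 to 1540 in the others (-0.30). For TGG2, 11 accessions have means of at least 284 RPKM and the other 8 have at most 4.98, so that the mean of the others describes no accession. ESM1, which favours isothiocyanates, had 69.0 and 67.8 RPKM in Rsch-4, against 11.6 to 1108 in the others, and was not called.

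Read together by accession, high AOP3 with ESP under 50 RPKM was found in 3 accessions: Kn-0, No-0 and Rsch-4. No-0 and Rsch-4 also had TGG2 of at least 100 RPKM, and Rsch-4 alone had AT2G25450 under 1 RPKM besides. These limits were set in the gaps between accession means after the values were seen and carry no test. With only the lane mates as the others, the biosynthesis list had 2 genes higher and 9 lower, and the differences were -6.23 for ESP and 2.29 for AOP3. Without either Rsch-4 library, with a single one left, fewer genes of that list were called in each direction, and fewest without replicate 1.

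**Figure D4:**
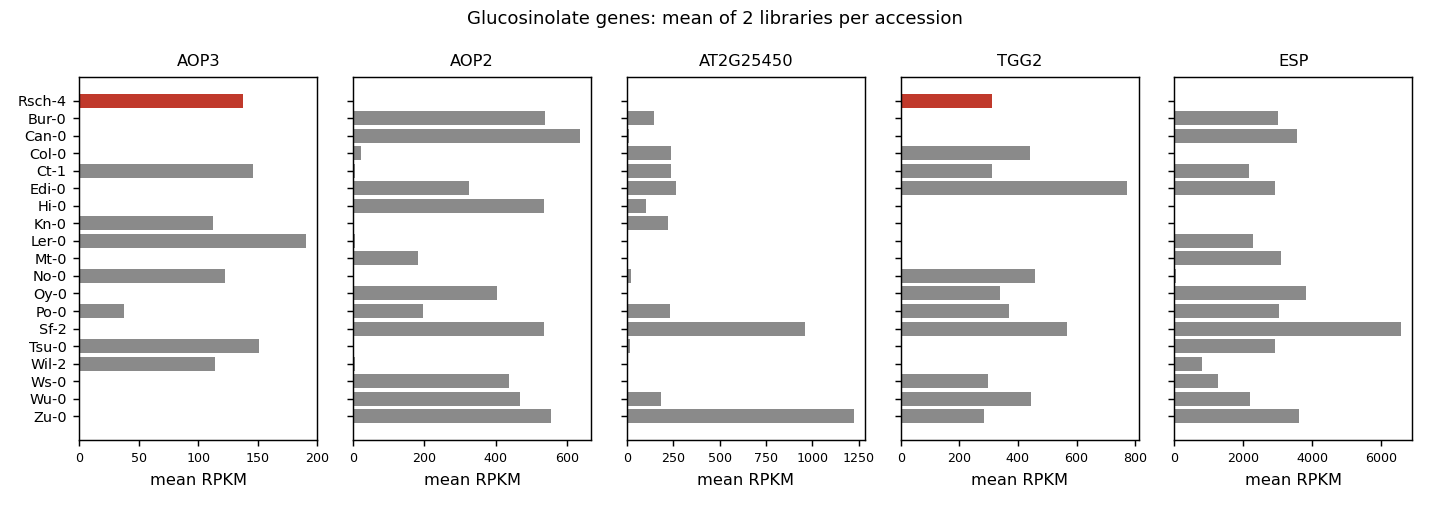
Mean RPKM of the 2 libraries of each accession for AOP3, AOP2, AT2G25450, TGG2 and ESP, with Rsch-4 in red at the top and a linear scale of its own for each gene. Rsch-4 has AOP3 and TGG2 at levels like those of the other accessions that express them, and AOP2, AT2G25450 and ESP too low to see on these scales.

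Many members of the circadian clock list were called. The plant clock is a loop in which the morning factors CCA1 and LHY repress evening genes such as TOC1, GI, LUX and ELF4. In turn, evening repressors such as TOC1 act on morning genes. Of 29 genes tested, 12 were higher and 6 lower in Rsch-4, against 7.36% and 5.26% of all genes, and none was set apart. The 12 higher were COR27, AT4G33980, ELF4, FKF1, GRP7, PRR3, LUX, TOC1, PRR5, GRP8, ELF3 and GI, of which most peak in the afternoon or evening. The 6 lower were CCA1, PRR9, LNK2, RVE8, RVE1 and LNK1, which peak from dawn to midday.

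Many promoters of evening genes carry the evening element, the motif AAAATATCT, to which CCA1 and its relatives bind. It was searched on both strands within 500 bases before the annotated gene start, in the TAIR10.1 sequence of RefSeq, which is that of Col-0 and not of Rsch-4. It was found in 7 of the 12 genes higher, in 0 of the 6 lower and in 1 of the 11 not called, beside 4.11% of 32835 nuclear genes. This is a description of letters and not of binding. The copy nearest the gene start is shown for the 7, on the strand of the gene, with that copy in capitals. AGATATTTT is the element on the other strand. COR27 has 2 copies, and its other copy stands in lower case near the start of its window. The windows are chr5:17199911-17199950 for COR27, chr1:25508433-25508481 for FKF1, chr2:9266560-9266608 for GRP7, chr3:17182969-17183017 for LUX, chr5:24674792-24674840 for TOC1, chr5:8358705-8358753 for PRR5 and chr4:18275217-18275248 for GRP8. FKF1, LUX and TOC1 are on the plus strand, and the others on the minus strand. Windows of COR27 and GRP8 are shorter because they end at the gene start.
COR27: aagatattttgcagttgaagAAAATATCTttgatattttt
FKF1: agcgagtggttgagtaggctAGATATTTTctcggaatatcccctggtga
GRP7: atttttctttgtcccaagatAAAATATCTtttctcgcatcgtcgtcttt
LUX: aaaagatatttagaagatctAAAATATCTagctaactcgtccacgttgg
TOC1: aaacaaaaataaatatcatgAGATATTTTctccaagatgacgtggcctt
PRR5: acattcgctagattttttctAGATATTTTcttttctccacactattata
GRP8: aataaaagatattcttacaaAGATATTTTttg

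COR27, a cold-regulated repressor that acts within the clock, had 29.5 and 39.4 RPKM in Rsch-4, against a lowest of 0, a median of 1.79 and a highest of 77.3 in the others (3.07 ± 0.51, adjusted p = 1.75e-04). ELF4, part of the evening complex, had 59.6 and 88.6 RPKM in Rsch-4, against 1.52, 11.4 and 137 (2.43 ± 0.40, adjusted p = 1.89e-04). LUX, the DNA-binding member of that complex, had 58.7 and 53.1 RPKM in Rsch-4, against 6.17, 19.7 and 57.7 (1.38, adjusted p = 3.80e-04). ELF3, which completes the complex, differed by 0.56, so all its members were higher. TOC1, the evening repressor, had 47.3 and 44.4 RPKM in Rsch-4, against 7.01 to 65.3 in the others (1.32). FKF1, a blue-light receptor that times flowering, had 44.7 and 47.7 RPKM in Rsch-4, against 0.595 to 67.4 (1.84 ± 0.43, adjusted p = 0.00562). Its annotated span overlaps that of AT1G68060. The FKF1 call was lost without either Rsch-4 library. Against the lane mates alone FKF1 differed by 0.53 ± 0.20 (adjusted p = 0.275). GI, with which FKF1 acts, had 43.5 and 45.7 RPKM in Rsch-4, against 13.5 to 54.2 (0.54). GRP8, an RNA-binding protein of a loop linked to the clock, had 648 and 653 RPKM in Rsch-4, above the highest other library at 614.

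Of the morning genes, CCA1 had 4.02 and 4.07 RPKM in Rsch-4, against a lowest of 1.13, a median of 13.5 and a highest of 38.1 in the others (-1.33, adjusted p = 0.00557). PRR9, a repressor of CCA1, had 1.17 and 1.51 RPKM in Rsch-4, against 0.249, 5.996 and 12.6 (-1.28); its exons share 32.6% of words with other genes. LNK2, a coactivator with RVE8, had 22.3 and 19.8 RPKM in Rsch-4, against 13.4, 55.6 and 122 (-1.21). LHY, the partner of CCA1, had 1.46 and 2.29 RPKM in Rsch-4, against 0.249 to 14.1, and missed the threshold (adjusted p = 0.06075). All these Rsch-4 values lie within the range of the others.

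Rsch-4 stood near one end of the accessions without being its extreme. It had the highest mean of the 19 for 3 genes of the list and ranked second for 6. Zu-0 was above it in 8 of the 12 genes higher and below it in all 6 lower. Set against the lane mates alone, 0 genes were higher and 1, LNK2, was lower; COR27 differed there by 1.67 ± 0.29 (adjusted p = 0.0560), ELF4 by 1.16 ± 0.36 (adjusted p = 0.201) and CCA1 by -0.64 ± 0.16. The list had 5 higher and 1 lower without Rsch-4 replicate 1, and 8 and 3 without replicate 2. Levels of these genes swing over the day, the hour of harvest is not given, and accession, lane and hour cannot be told apart.

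**Figure D5:**
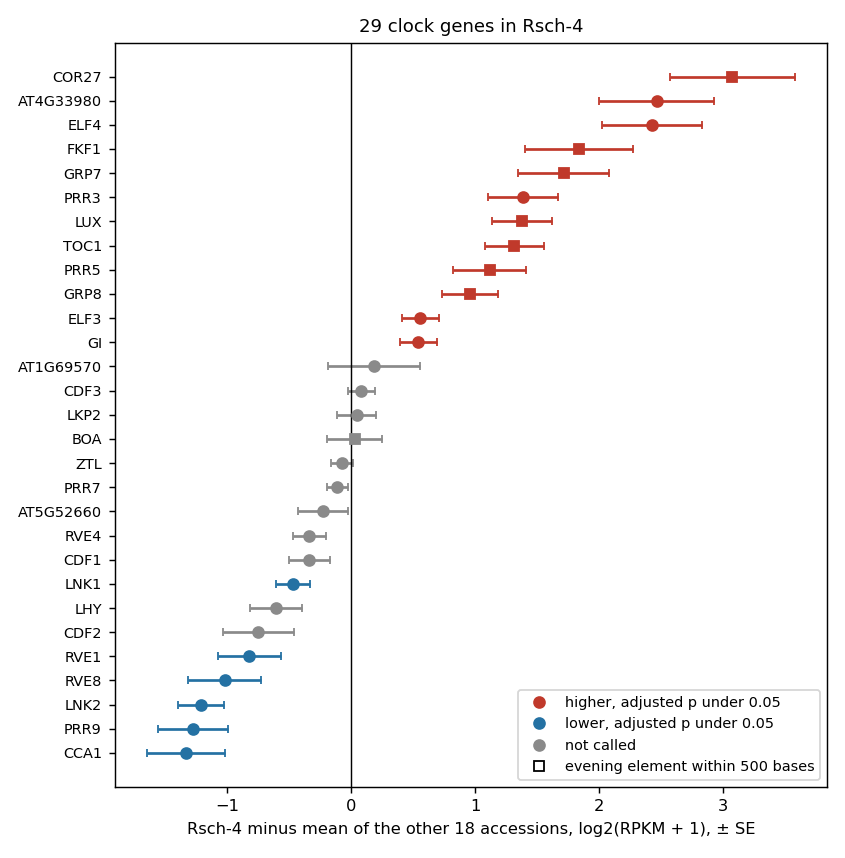
Difference of Rsch-4 minus the mean of the other 18 accessions for each of 29 clock genes on the log2(RPKM + 1) scale, with the standard error, coloured by call, and square where the evening element lies within 500 bases before the gene start. The genes run from COR27 at 3.07 to CCA1 at -1.33, and the squares lie among the genes that were higher, apart from BOA.

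Of 22 genes tested from the list of cold and abscisic acid response, 9 (40.9%) were higher and 1 (4.545%) lower, against 7.36% and 5.26% of all genes, with a median difference of 0.60. LTI78, a hydrophilic protein induced by cold and drought, had 55.8 and 50.05 RPKM in Rsch-4, against a lowest of 4.89, a median of 12.3 and a highest of 81.8 in the others (1.81 ± 0.27, adjusted p = 5.33e-05). COR15B, a chloroplast protein that protects membranes in the cold, had 141 and 133 RPKM in Rsch-4, against 8.16, 50.03 and 201 (1.38 ± 0.27, adjusted p = 9.58e-04); 28.7% of its words are shared with other genes, and without Rsch-4 replicate 1 its adjusted p was 0.0522. COR47 and ERD10, dehydrins, differed by 0.97 and 0.89. CBF3, an activator of the cold genes, had 4.72 and 9.17 RPKM in Rsch-4, against 0.552, 2.47 and 15.3 (1.07 ± 0.34, adjusted p = 0.0407). CBF3 missed the threshold without either Rsch-4 library, with adjusted p of 0.0947 and 0.411.

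KIN1, another cold-induced gene of the list, was higher by 1.045 (adjusted p = 0.0288), and its call was lost without either Rsch-4 library. Some other members of the list were not among the genes higher. RAB18 (AT5G66400) had 8.73 and 27.9 RPKM in Rsch-4, against 6.58 to 41.7 in the others, LTI65 had 0.602 and 0.721 against 0 to 2.63, and NCED3, an enzyme of abscisic acid synthesis, had 1.86 and 1.74 against 0 to 4.62. P5CS1, the enzyme of proline synthesis, was lower, at 29.3 and 29.6 RPKM in Rsch-4 and 24.3 to 85.3 in the others (-0.71). Among the lane mates 0 genes of the list were called in either direction, LTI78 differing by 0.98 ± 0.29 (adjusted p = 0.180). The count was 4 higher without Rsch-4 replicate 1, and 5 without replicate 2.

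The copper/zinc superoxide dismutases CSD1 and CSD2, the chaperone CCS and the importer COPT2 were higher. CSD2, the plastid copper/zinc superoxide dismutase, had 246 and 274 RPKM in Rsch-4, against a lowest of 34.4, a median of 78.2 and a highest of 369 in the others (1.62 ± 0.18, adjusted p = 1.04e-06). CCS, which loads copper into the enzyme, had 37.1 and 36.8 RPKM in Rsch-4, against 5.32, 12.4 and 42.5 (1.47 ± 0.17, adjusted p = 1.42e-06). CSD1, the cytosolic enzyme, had 55.9 and 90.6 RPKM in Rsch-4, against 14.3 to 148 (0.91), and COPT2, a copper importer, had 38.4 and 33.5 against 0 to 42.4 (1.05; adjusted p without Rsch-4 replicate 1, 0.146). FSD1, the iron enzyme that replaces CSD2 when copper is scarce, was lower, at 402 and 478 RPKM in Rsch-4 and 404 to 898 in the others (-0.45), as was CCH, a copper chaperone (-0.50). COPT1, another importer, was not called. Of 10 genes tested, 4 were higher and 2 lower (40% and 20%, against 7.36% and 5.26% of all genes). Fewer were higher without either Rsch-4 library, with a single one left each time. Fewer were lower without replicate 1 but not without replicate 2. Only Wu-0 was above Rsch-4 for CSD2 and CCS. Against the lane mates alone 3 were higher and 0 lower, with CSD2 at 1.71 ± 0.28 (adjusted p = 0.0459) and CCS at 1.34 ± 0.10 (adjusted p = 0.00474).

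Among flowering genes, 2 of 12 promoters tested (16.7%) were higher and 0 lower, against 7.36% and 5.26% of all genes. SEP3, a MADS factor of floral organs, had 27.4 and 26.5 RPKM in Rsch-4, against a lowest of 0, a median of 2.39 and a highest of 28.6 in the others (2.82 ± 0.29, adjusted p = 2.23e-07). Its mean was the highest of 19, followed by Po-0 at 21.5 and Oy-0 at 19.4. CO, which activates FT in long days, had 2.72 and 2.15 RPKM in Rsch-4, above the 0 to 2.02 of all others (1.14 ± 0.23, adjusted p = 0.00131); it overlaps 2 other annotated genes and missed the threshold without Rsch-4 replicate 1 (adjusted p = 0.0887). FT itself had 0 and 0.719 RPKM in Rsch-4, against 0 to 1.16 in the others, and SOC1 had 8.41 and 7.67 against 0 to 31.8. LFY, AP1, CAL and AP3, markers of flowers, did not reach the filter, PI had 0.816 and 0.586 RPKM in Rsch-4 and 0 to 2.27 in the others, and AG is listed at 0 in both Rsch-4 libraries.

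SPL9, a factor of the age pathway, had 9.14 and 10.1 RPKM in Rsch-4, against 2.69 to 7.74 in the others (0.80 ± 0.20, adjusted p = 0.0106). It was the only SPL gene called among 10 tested (10%), against 7.36% of all genes called higher. RAV2, a repressor of FT, had 3.85 and 3.505 RPKM in Rsch-4, the lowest mean of 19, against 3.24 to 87.2 in the others (-1.41 ± 0.30, adjusted p = 0.00262). SNZ, a repressor of the AP2 family, was higher by 0.28. FLC, the vernalization-sensitive repressor, had 12.8 and 20.4 RPKM in Rsch-4, against 0.565 to 144 in the others, and was not called. RAV2 had an adjusted p of 0.0658 without Rsch-4 replicate 1, and SPL9 missed the threshold without either library (0.120 and 0.109).

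Photosynthesis genes were lower where they were called: of 42 tested, 0 were higher and 15 (35.7%) lower, against 7.36% and 5.26% of all genes, with a median difference of -0.21. The light-harvesting proteins of photosystem II led, with 7 of 14 LHCB genes lower. LHCB2.2 had 594 and 676 RPKM in Rsch-4, below the 713 to 2087 of all others (-1.04 ± 0.12, adjusted p = 1.31e-06). LHCB4.2 had 824 and 831 RPKM in Rsch-4, below the 910 to 2013 of all others (-0.75 ± 0.12, adjusted p = 1.22e-04). LHCB2.1 had 531 and 603 RPKM in Rsch-4, against a lowest of 554 in the others (-0.77), and LHCB2.3 had 632 and 568 against 171 to 2831 (-1.16). Exons of LHCB2.1, LHCB2.2 and LHCB2.3 share 31.99%, 39.8% and 40.7% of their words, so reads may move between these copies.

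Rsch-4 had the lowest mean of the 19 accessions for 15 of the 42 genes. RCA, the activase of Rubisco, had 3309 and 3737 RPKM in Rsch-4, against 3545 to 6980 in the others (-0.48), whereas 0 of the 4 genes of the Rubisco small subunit were called. OHP, a one-helix protein of the light-harvesting family, lay below all others with 92.0 and 127 RPKM in Rsch-4, against 154 to 449 (-1.29 ± 0.14, adjusted p = 5.78e-07); it overlaps AT5G02130. With the lane mates only, 1 gene of the list was lower, and LHCB2.2 differed by -0.86 ± 0.20 (adjusted p = 0.109). Fewer genes of the list were lower without either Rsch-4 library, with a single one left each time. The drop was larger without replicate 1 than without replicate 2. Several LHCB genes also swing over the day, and the part of harvest time was not tested.

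In nitrogen and sulfur metabolism 1 of 24 genes (4.17%) was higher and 6 (25%) were lower, against 7.36% and 5.26% of all genes. Fewer were called in each direction without either Rsch-4 library, with a single one left each time. LSU2, which responds to sulfur shortage, had 3.86 and 3.89 RPKM in Rsch-4, against a lowest of 0.448, a median of 34.1 and a highest of 75.6 in the others (-2.19 ± 0.16, adjusted p = 4.52e-10). In 5 accessions, Rsch-4 among them, LSU2 has a mean under 10 RPKM. Its relative LSU1 had 13.3 and 21.5 RPKM in Rsch-4, against 1.49 to 73.5, and was not called. APR2, a sulfate assimilation enzyme, had 52.9 and 54.0 RPKM in Rsch-4, against 42.8, 120 and 283 (-1.11 ± 0.16, adjusted p = 2.91e-05). NIA2, nitrate reductase, had 137 and 160 RPKM in Rsch-4, against 117, 282 and 455 (-0.85 ± 0.12, adjusted p = 3.11e-05), and NIR1, the next enzyme, had 154 and 152 against 145 to 274 (-0.38). NRT2.1, a nitrate transporter, was the gene higher, at 3.84 and 6.16 RPKM in Rsch-4 and 0.107 to 9.75 in the others (0.99), and it missed the threshold without either Rsch-4 library. Against the lane mates alone 0 were higher and 3 lower, namely LSU2, APR2 and NIA2.

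On a list of named immune receptors, 0 of 26 genes tested were higher and 7 (26.9%) lower, against 7.36% and 5.26% of all genes. The wider class of NLR receptors, counted after the values were seen, had members in both directions, 15 of 99 higher and 17 lower. CSA1 and CHS3, adjacent receptor genes on chromosome 5 that act as a pair, are listed at 0 in both Rsch-4 libraries, against medians of 0.156 and 0.553 and highest values of 24.3 and 12.2 RPKM in the others. CSA1 is under 0.3 RPKM in 11 of the 19 accessions, so Rsch-4 is with the majority there. RPP5, a receptor for a downy mildew pathogen, had 1.60 and 2.11 RPKM in Rsch-4, against 0 to 23.5 (-1.17, adjusted p = 4.22e-06), with 48.5% of its words shared. FLS2, the flagellin receptor, had 2.53 and 2.07 RPKM in Rsch-4, against 1.51, 4.74 and 11.4 (-0.81, adjusted p = 0.00286). CHS1, a further receptor of this kind, had 0.587 and 0.632 RPKM in Rsch-4, below the 0.726 to 4.31 of all others (-0.93), but 90.2% of its words are shared with other genes. With the lane mates only, 1 was higher and 4 were lower.

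RPM1, a receptor for bacterial effectors at chr3:2225855-2229555, has no value in either Rsch-4 library and values in all 36 others, with a median of 2.92 and a highest of 4.57 RPKM. Such genes carry a code in place of a value, and its meaning is not given. In all, 2801 nuclear genes have no value in both Rsch-4 libraries, of which 2651 lack one in every other accession too. Only 22 lack it in Rsch-4 alone, and 7 of these reach 1 RPKM in at least 2 other libraries. Among the other accessions the number with no value in one accession alone runs from 0 in Col-0 to 68 in Can-0. AT2G14285, annotated as a small nuclear ribonucleoprotein protein, has a median of 8.98 and a highest of 66.5 RPKM in the others. For AT1G28940, a tRNA gene, and AT2G05752 the medians of the others are 0.

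Of 27 salicylic acid genes, 0 were higher and 4 (14.8%) lower, against 7.36% and 5.26% of all genes. This list had 1 lower without Rsch-4 replicate 1, 2 without replicate 2 and 0 with the lane mates only. ACD6, a locus at which accessions differ in autoimmunity, had 7.83 and 6.65 RPKM in Rsch-4, against a lowest of 0.280, a median of 22.8 and a highest of 197 in the others (-1.42 ± 0.23, adjusted p = 1.46e-04). PR1, the usual marker, had 63.6 and 13.1 RPKM in Rsch-4, against 0 to 948, and was not called. NPR3, a salicylic acid receptor, had 3.64 and 5.88 RPKM in Rsch-4, against 5.73 to 15.8 (-0.68), while PBS3 and WRKY54 differed by -0.67 and -0.73. Of 25 jasmonate and ethylene genes, 1 (4%) was higher and 2 (8%) lower, shares near those of all genes. LOX2, an enzyme of jasmonate synthesis, was higher at 814 and 668 RPKM in Rsch-4 and 258 to 1099 in the others (0.53), and the storage proteins VSP1 and VSP2 were lower, with differences of -1.45 and -0.84. The calls of VSP1, VSP2, PBS3 and WRKY54 were lost without either Rsch-4 library, and those of NPR3 and LOX2 without replicate 1 (adjusted p of 0.272 and 0.378).

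Of 16 gibberellin genes, 4 (25%) were higher and 2 (12.5%) lower, against 7.36% and 5.26% of all genes. GA20OX1, a synthesis enzyme under feedback control, had 0.669 and 1.44 RPKM in Rsch-4, against 1.07 to 5.99 in the others (-0.88). GA2OX2, which inactivates gibberellin, had 5.51 and 6.28 RPKM in Rsch-4, against 0.885 to 6.47 (0.96), and GA3OX1 had 15.7 and 12.5 against 2.05 to 21.3 (0.64). RGL1, a DELLA repressor, was higher by 0.56 with an adjusted p of 0.0465, and missed the threshold with median centring (0.0657) and quantile normalization (0.0787). Fewer genes of the list were higher without either Rsch-4 library, with a single one left each time. Fewer were lower without replicate 1 and more without replicate 2. The auxin response genes IAA1 and IAA5 were lower, with differences of -0.83 and -1.29. They were 2 of 13 genes of shade, PIF and auxin growth (15.4%), against 5.26% of all genes called lower.

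Single members of other lists were called. KYP, a histone methyltransferase, had 9.26 and 11.6 RPKM in Rsch-4, against 4.17 to 9.30 in the others (0.72 ± 0.14, adjusted p = 0.00124). VIM1, which helps keep DNA methylation, had 28.0 and 22.7 RPKM in Rsch-4, against 11.8 to 26.0 (0.58). They were 2 of 12 genes of the DNA methylation machinery (16.7%), against 7.36% of all genes called higher. ECS1, a small protein with on-or-off expression, had 262 and 330 RPKM in Rsch-4, against 0 to 1759 (2.03 ± 0.26, adjusted p = 7.06e-06). This direction holds on the log scale only: on the RPKM scale the mean of Rsch-4 was 295.7, against 409.6 in the others. DOG1, a seed dormancy gene, had 0.403 and 0 against 0 to 6.03 (-1.21). NYC1, an enzyme of chlorophyll b breakdown, had 95.1 and 94.0 RPKM in Rsch-4, the highest mean of 19, against 27.1 to 104 (0.85 ± 0.17, adjusted p = 0.00135), while ORE1, a senescence factor, was lower at 0.361 and 0.262 against 0.272 to 7.48 (-0.99). The heat genes HSFA7A and HSP18.2 were higher by 1.16 and 1.01, 2 of 7 tested (28.6%), against 7.36% of all genes. In trichome patterning TRY was lower, with a difference of -1.48, and GIS higher by 1.00 (adjusted p = 0.0468). GIS missed the threshold under 9 alternatives and without 21 single libraries. The ORE1 values stand for an estimated 1.1 reads in each Rsch-4 library. Those of DOG1 stand for 1.6 and 0 reads, and those of TRY for 0 and 3.9. The calls of ORE1 and HSP18.2 were lost without either Rsch-4 library. Those of TRY, HSFA7A, VIM1 and NYC1 were lost without Rsch-4 replicate 1, and those of KYP and DOG1 without replicate 2.

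No member was called among 23 iron genes, 13 phosphate starvation genes, 5 root, 2 pollen, 4 seed and 12 stomatal lineage markers, and 10 genes of meristem and cell division, by limma at an adjusted p under 0.05.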

How the data were processed

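The authors deposited an RPKM value per gene and library, per the file headers; a code of -1, whose meaning the headers do not give, was read as no value. The submitters' processing notes name TAIR 9 and TAIR 10; neither the aligner nor the use of strand is stated there or in the labels. Without counts in the files no count test was run, and the mapped reads of a library were estimated from the value that genes with 1 read share after scaling by exon length.

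Here RPKM was turned to log2(RPKM + 1), on which a given fold appears smaller in genes of low level. Nuclear genes with values in all 38 libraries and at least 1 RPKM in at least 2 were tested with limma 3.58.1 (R 4.3.3), with 1 mean per accession, trend on, and Rsch-4 set against the mean of the other 18. P-values were adjusted over all genes tested by Benjamini and Hochberg, and a gene was called at an adjusted p under 0.05. The test was also run on simulated data in which accessions shared the same mean per gene, apart from changes set in Rsch-4. Spread between accessions was not part of that run. Gene names, products, coordinates and the reference sequence are from RefSeq TAIR10.1. Shared sequence is the percent of 32-base exon words found in other genes.

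Alternatives changed the added value, the filter, the scaling, the trend, the replicate block, the accessions compared and the unit of replication, and left out each library in turn. Genes named are the 10 largest differences in each direction among those set apart, adjacent genes set apart together, and members of the lists; genes named beyond these were chosen after their values were seen. Members and lists were chosen with earlier results of these data known. Replicate numbers do not pair the samples. Precision rests on 2 libraries per accession, and depths are estimates.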

Additional observations from a re-analysis of the deposited data

Results flagged for a closer look

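Annotated transposable elements and features that the files name as new genes were not part of the comparisons above. In 10 of them both Rsch-4 libraries lay above every other library, with a difference of at least 1. No p-value was required of them. They are 5 of 739 elements and 5 of 352 new genes that passed the filter, and 0 of either kind were lower by these rules. N_new_gene_229 had 28.6 and 34.3 RPKM in Rsch-4 and N_new_gene_228 had 13.8 and 11.55, and both are listed at 0 in all 36 other libraries; their differences of 5.02 and 3.77 depend on the added 1. N_new_gene_365 had 36.1 and 51.9 RPKM in Rsch-4, against 0 to 20.5 in the others (5.19). N_new_gene_227 differed by 3.13 and N_new_gene_23 by 1.56. Among elements, AT1TE54095 had 26.8 and 19.3 RPKM in Rsch-4, against 0 to 18.95 in the others (4.34). AT5TE68840 differed by 3.82, AT5TE61365 by 1.52, AT3TE54005 by 1.43 and AT5TE11825 by 1.31. The reads behind these features were not estimated.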

How the results depend on the processing

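In the comparison with all 18 accessions the counts of calls, 1480 higher and 1057 lower, moved by less than 1.5 times under other pseudocounts, filters and scalings. With the replicate block they were 1454 and 1036. The excess of higher over lower calls depended on the scaling. Quantile normalization gave 1222 higher and 1211 lower, and median centring gave 1292 and 1211. Genes set apart numbered 31 lower with a pseudocount of 0.1, and 18 higher and 6 lower with a pseudocount of 5. With the lane mates only, 242 were higher and 243 lower, 117 and 71 of them set apart; with the replicate block added these were 123 and 109 called and 45 set apart lower. With accession means as units, 8 were higher and 4 lower, 6 and 4 of them set apart. Leaving out single libraries gave 345 to 1687 genes higher, 319 to 1200 lower, 50 to 188 set apart higher and 19 to 145 set apart lower. The lowest call counts came without Rsch-4 replicate 1, and the most genes set apart without Rsch-4 replicate 2, where they need to exceed the others in 1 library only. Of 84 named genes, 48 kept their call without any single library and 7 under every alternative and leave-out; 43 lost it with the lane mates only and 77 with accession means. KIN1, a cold-induced gene that was higher by 1.045, differed by -0.005889 with the lane mates only, with or without the replicate block; the cause was not tested. Leaving out Zu-0, chosen after seeing the data, gave 1475 higher and 1067 lower. Replicate numbers were shared across accessions by number alone: correlations of same-numbered deviations ran from -0.146 to 0.0885, and the block ended the calls of GIS and RGL1 among named genes. Fewer fitted libraries, by construction, lower the power of the lane-mate comparison. Genes near the 3-read floor are limited by depth.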

Other observations

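Of the classes counted after the values were seen, receptors of the NLR kind, which sense pathogen effectors, had 15 of 99 genes higher (15.2%) and 17 lower (17.2%) in Rsch-4, against 7.36% and 5.26% of all genes. Of these, 2 (2.02%) were set apart, both higher, beside 0.249% of all genes. Proteins with a RING finger, many of them ubiquitin ligases, had 36 of 366 higher (9.84%) and 12 lower (3.28%), and UDP-glycosyltransferases had 8 of 94 higher (8.51%) and 4 lower (4.26%), shares near those of all genes. The 70 genes set apart were spread over all 5 chromosomes.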
